A study of Mus musculus with 6 samples.

Results

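The genes of fatty acid uptake and mitochondrial fatty acid oxidation were followed in the mouse left ventricle, over 34 genes chosen by their known role: 5 of uptake and lipolysis, 2 of activation, 5 of the carnitine shuttle, 15 of beta-oxidation, 3 of electron transfer, and 4 acyl-CoA thioesterases and regulators. Of the 34, 33 had a probe on the Illumina beadchip and 31 were measured, that is, had a probe with a detection p below 0.01 on at least 2 of the 6 arrays, among 9577 genes measured in all. *Acsl1*, a major activating enzyme of the heart, had no probe in the annotation. *Cpt1a*, the liver form of the outer carnitine palmitoyltransferase, and *Ehhadh*, the peroxisomal bifunctional enzyme, had probes that did not pass.

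The 6 arrays covered 4 groups of male c57/BL6 mice: *Kdm3a*-Tg mice with transverse aortic constriction (Tg TAC, 2 arrays), wild-type mice with the same constriction (WT TAC, 2 arrays), *Kdm3a*-Tg mice with sham surgery (Tg Sham, 1 array) and wild-type sham mice (WT Sham, 1 array). TAC narrows the aortic arch and loads the left ventricle with pressure. The transgene was a Flag-tagged *Kdm3a* cDNA driven by the αMHC promoter, which is active in cardiomyocytes. Which of the study's transgenic lines these animals came from was not given in the labels. Mice had surgery at 6 to 8 weeks of age, and per the labels hearts were taken 3 weeks later. The study's text gives a longer interval for arrays of TAC hearts and also describes arrays of isolated cardiomyocytes, and the labels of these arrays name left ventricle. Each array was 1 animal: 446 and 18 for Tg TAC, 445 and 17 for WT TAC, 454 for Tg Sham and 444 for WT Sham. What the number series stood for was not given in the sources used here.

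The targeted gene went against 2 labels. A *Kdm3a* probe (ILMN_3118169) read 34642 and 33540 raw intensity units in the libraries labelled Tg TAC (animals 446 and 18), 30614 and 229 in those labelled WT TAC (445 and 17), 247 in the library labelled Tg Sham and 341 in the library labelled WT Sham. The library labelled WT TAC from animal 445 was thus as high as the transgenic TAC libraries, and the library labelled Tg Sham was as low as the lowest wild-type library. The 2 other detected *Kdm3a* probes showed no such step, and the part of the transcript each probe reads was not tested. Group names below are those of the labels, and every genotype direction rests on them.

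Fatty acids are the main fuel of the adult heart. They are freed from lipoproteins by lipoprotein lipase or from stored fat by lipases, cross the membrane with the help of CD36 and fatty acid transport proteins, and are activated to acyl-CoA. Carnitine carries the acyl chains into mitochondria, where dehydrogenases, hydratases and thiolases shorten them step by step and pass electrons through electron transfer flavoprotein to the respiratory chain. The nuclear receptor PPARα, encoded by *Ppara*, drives transcription of many of these genes.

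Over the pathway as a whole, 1 animal of each TAC group stood below the other arrays. Levels are log2 intensities after background correction and quantile normalization, and each gene's deviation is from its own mean over the 6 arrays. The median deviation of the 31 genes was -0.30 in Tg TAC animal 446 and 0.13 in Tg TAC animal 18. It was -0.31 in the library labelled WT TAC from animal 445 and 0.29 in WT TAC animal 17. The single sham arrays had 0.15 (library labelled Tg Sham) and 0.07 (WT Sham). The median over all 9577 genes stayed between -0.04 and 0.02. Animals 445 and 446, 1 of each genotype label, were thus the low arrays, and the other 4 lay above zero. The lowest array was animal 445 for 15 of the 31 genes and animal 446 for 12, against 16% and 17.9% of all genes. Both low arrays had the high *Kdm3a* probe reading, and the 3 arrays with the low reading (17, 454 and 444) had medians above zero. Animal 18 had the high reading and a median of 0.13. The relation of the probe to the pathway was not tested.

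**Figure D1:**
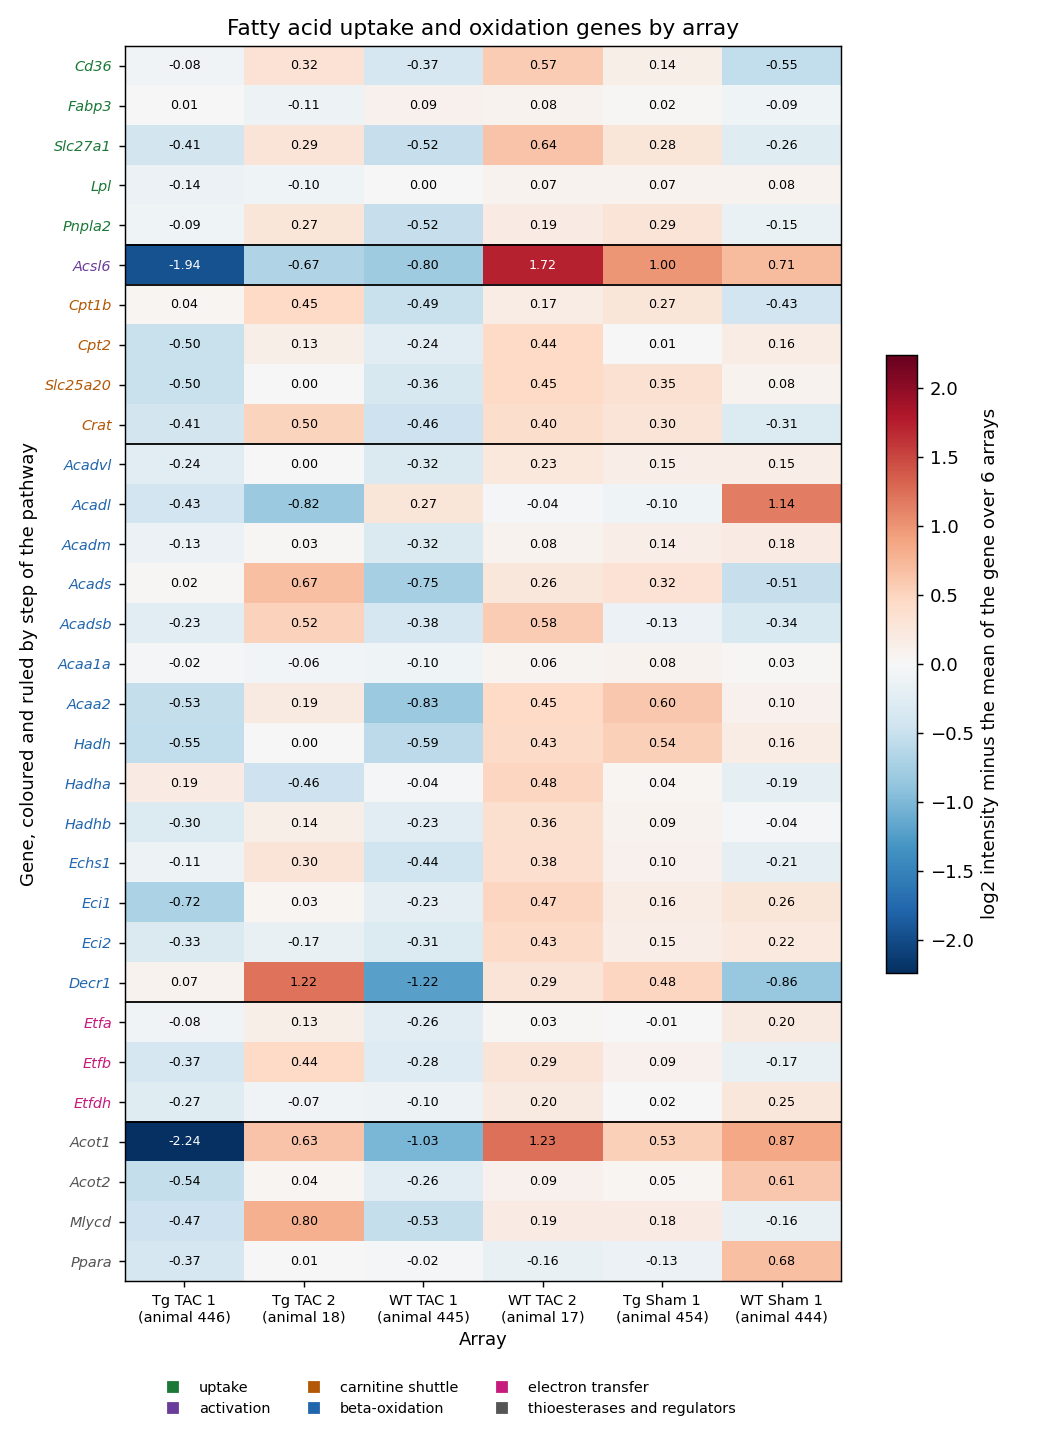
Log2 intensity of each of the 31 measured genes (rows, grouped by step) minus its mean over the 6 arrays (columns, with the animal number). Blue is below and red above the mean. The columns of animals 446 and 445 are mostly blue, and *Acot1* in animal 446 and *Acsl6* in animal 446 are the darkest cells.

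By label, none of the 31 genes passed the test between transgenic and wild-type TAC ventricles. Limma called 0 of 9577 genes (0%) at an adjusted p below 0.05 in Tg TAC against WT TAC, while 698 genes (7.29%) had an unadjusted p below 0.05, *Acadl* alone among the members. The t-test named in the study's methods called 0 genes after adjustment in this comparison. The median difference of the members was -0.09, against 0.01 over all genes. Groups did not overlap for 3 members, all lower in Tg TAC, and 18.8% of all genes were lower in this way. No member was higher without overlap, against 20.7% of all genes. Without Tg TAC animal 446 the median turned to 0.12, and without WT TAC animal 17 to 0.23.

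The members with the widest differences were spread as widely within the groups. *Acsl6*, a long-chain acyl-CoA synthetase, was the only gene listed for activation that was measured. It read 5.97 and 7.24 in Tg TAC against 9.63 in WT TAC animal 17 and 7.11 in the library labelled WT TAC from animal 445. The groups overlapped, and the difference was -1.77 ± 0.88 (SE, limma adjusted p = 0.70). *Decr1*, the reductase that prepares polyunsaturated chains for oxidation, read 9.92 and 11.07 in Tg TAC against 8.63 (animal 445) and 10.14 (animal 17) in WT TAC, a difference of 1.11 ± 0.60 (adjusted p = 0.70). Here too 1 Tg TAC array lay below 1 WT TAC array. *Lpl*, lipoprotein lipase, had 15.07 and 15.11 in Tg TAC against 15.21 and 15.28 in WT TAC, and *Fabp3*, the heart fatty acid binding protein, had 15.21 and 15.09 against 15.29 and 15.28. Both were lower in Tg TAC without overlap, by -0.15 ± 0.12 and -0.14 ± 0.12 (adjusted p = 0.78 and 0.80), differences close to their own errors.

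*Acadl*, long-chain acyl-CoA dehydrogenase, was the third member without overlap, and its probes did not tell the same story. On the brightest probe (ILMN_2689473) it had 10.50 and 10.11 in Tg TAC against 11.20 and 10.89 in WT TAC (-0.73 ± 0.21, adjusted p = 0.67). A second probe (ILMN_2783519) had 9.84 and 10.36 in Tg TAC against 8.67 and 9.63 in WT TAC, higher in Tg TAC by 0.95 ± 0.37 in the fit over single probes (adjusted p = 0.67). The shams split likewise, with 10.83 in the library labelled Tg Sham and 12.07 in WT Sham on the first probe against 9.95 and 9.05 on the second. The third and dimmest kept probe (ILMN_2735084) went with the first, at -0.45 ± 0.33 between the TAC groups. It had 5.75 in the library labelled Tg Sham and 6.85 in WT Sham. A direction for *Acadl* between genotypes therefore depended on the probe, with 2 of 3 lower in Tg TAC. Of 16 members with several kept probes, 4 disagreed in direction in this comparison (*Acadl*, *Acadvl*, *Crat* and *Etfa*).

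**Figure D2:**
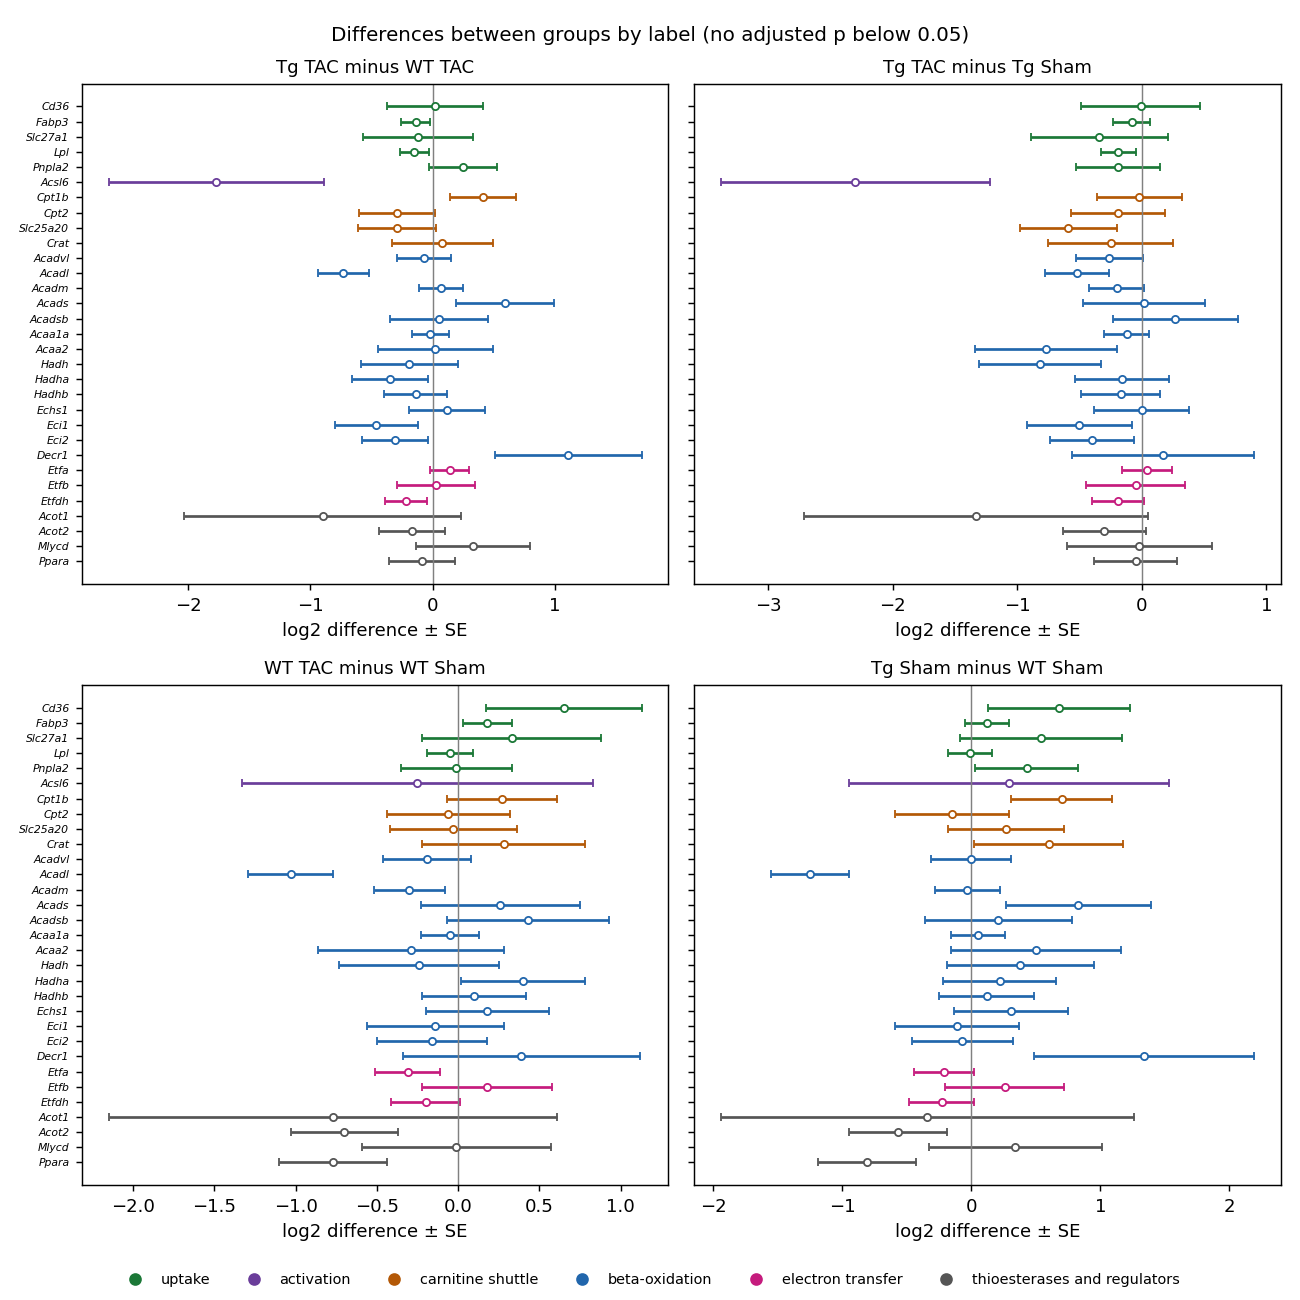
Log2 difference ± SE of the 31 genes in 4 comparisons by label, coloured by step, with open circles because no adjusted p was below 0.05. *Acsl6* lies farthest left in Tg TAC minus Tg Sham, at -2.30 ± 1.08, and *Decr1* farthest right in Tg Sham minus WT Sham, at 1.34.

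In *Kdm3a*-Tg mice the members were mostly lower after TAC, but none passed the test in the fit of group means. Limma called 0 genes (0%) in Tg TAC against Tg Sham, with 279 genes (2.91%) at an unadjusted p below 0.05 and no member among them, and the methods' t-test also called 0. Both Tg TAC arrays lay below the library labelled Tg Sham for 15 of 31 members, against 30.2% of all genes, and above it for none, against 33.0%. The median difference was -0.19, against 0.01 over all genes. It was -0.01 without animal 446 and -0.38 without animal 18. With the animal number series in the fit, which leaves 1 residual degree of freedom, limma called 69 genes and 2 members, *Acsl6* among them (-3.25 ± 0.38, adjusted p = 0.032). With 1 sham array the error in the fit of group means came from the spread of the TAC groups.

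*Acsl6* had the widest difference, with 5.97 and 7.24 in Tg TAC against 8.91 in the library labelled Tg Sham (-2.30 ± 1.08). *Hadh*, the short-chain hydroxyacyl-CoA dehydrogenase, had 6.85 and 7.40 against 7.94 (-0.82 ± 0.49), and *Acaa2*, the mitochondrial thiolase of the last step, had 11.05 and 11.77 against 12.18 (-0.77 ± 0.57). In these 3 genes animal 446 was the lower TAC array. *Slc25a20*, the carnitine-acylcarnitine carrier of the inner membrane, differed by -0.59 ± 0.39 and *Acadl* by -0.52 ± 0.26 on its brightest probe. Limma's adjusted p was 1.00 for all 5 genes. By step, 8 of 14 beta-oxidation genes, 3 of 5 uptake genes, 1 of 4 carnitine shuttle genes, 1 of 3 electron transfer genes, 1 of 4 thioesterases and regulators and *Acsl6* were lower without overlap.

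In wild-type mice the response to TAC went both ways. Limma called 0 genes (0%) in WT TAC against WT Sham, 166 genes (1.73%) had an unadjusted p below 0.05, of which 1 was a member (*Acadl*), and the methods' t-test called 0. Both arrays labelled WT TAC lay below WT Sham for 7 members, against 23.8% of all genes, and above it for 3, against 35.3%. *Acadl* differed by -1.03 ± 0.26 on its brightest probe, by 0.10 ± 0.45 on the second and by -0.64 ± 0.4 on the third. *Ppara* had 5.56 (animal 445) and 5.42 (animal 17) in WT TAC against 6.26 in WT Sham (-0.77 ± 0.33), and *Acot2*, the mitochondrial acyl-CoA thioesterase, had 7.96 and 8.31 against 8.83 (-0.70 ± 0.33). *Etfa* (-0.31 ± 0.20), a subunit of electron transfer flavoprotein, and medium-chain dehydrogenase *Acadm* (-0.30 ± 0.22) followed. On the other side *Hadha*, the alpha subunit of the trifunctional protein, differed by 0.40 ± 0.38 and *Fabp3* by 0.18 ± 0.15.

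*Cd36*, the fatty acid translocase, read 5.26 (animal 445) and 6.20 (animal 17) in WT TAC against 5.08 in WT Sham, where it was not detected. It was detected on 1 of the 2 WT TAC arrays, and no bound on the fold was given. In the library labelled Tg Sham *Cd36* read 5.77, at least 1.37-fold higher than WT Sham, whose value was replaced by the lowest intensity of a detected probe. *Ppara* was likewise near the limit, detected on 4 of 6 arrays. The median member difference in WT mice was -0.05, and it turned to 0.35 without the library labelled WT TAC from animal 445. It was -0.37 without animal 17.

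The single sham arrays differed by more than the TAC groups in a few genes, with no replicate to set this against. *Decr1* read 10.33 in the library labelled Tg Sham and 8.99 in WT Sham, *Acads* 10.66 and 9.83, *Cpt1b*, the muscle carnitine palmitoyltransferase, 12.86 and 12.16, and *Crat*, carnitine acetyltransferase, 11.13 and 10.52. *Ppara* read 5.45 in the library labelled Tg Sham and 6.26 in WT Sham, *Acot2* 8.27 and 8.83, and *Acot1* 9.50 and 9.84. Limma, with the spread taken from the TAC arrays, called 0 genes (0%), 309 genes (3.23%) had an unadjusted p below 0.05, and *Acadl* (-1.25 ± 0.30, adjusted p = 1.00) was again the only member among them. The median member difference was 0.21, against 0.04 over all genes. Probes disagreed in direction for 8 of the 16 members with several.

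The difference between the TAC responses of both genotypes was not resolved. No gene (0%) was called in that interaction and 87 (0.908%) had an unadjusted p below 0.05, none a member. *Acsl6* had -2.06 ± 1.52, *Ppara* 0.72 ± 0.47, *Acadl* 0.51 ± 0.37 and *Etfa* 0.35 ± 0.28 (adjusted p = 1.00 for each). Without overlap 3 members were lower and 3 higher, against 22.8% and 19.4% of all genes. The median of the members was -0.23, ranging from -0.60 without the library labelled WT TAC from animal 445 to 0.16 without animal 17. In the additive fit of surgery and genotype over all 6 arrays, TAC called 0 genes (0%), with 559 (5.84%) at an unadjusted p below 0.05 and *Acadl* the only member there (-0.77 ± 0.19, adjusted p = 0.82). On the brightest probe of each gene, all 4 TAC arrays lay below both shams for *Acadm* alone, at -0.25 ± 0.13, against 3.99% of all genes. They lay above both for none, against 6.62%. Dimmer probes of *Slc25a20* (ILMN_3061070, -0.74 ± 0.19), *Lpl* (ILMN_2585447, -0.62 ± 0.22) and *Crat* (ILMN_1220786, -0.5 ± 0.2, and ILMN_2771339, -0.55 ± 0.23) also lay below both shams on all 4. None passed in limma's fit over single probes (adjusted p = 0.76 for each), and the brightest probes of these genes overlapped. *Acadm* had 14.36 and 14.52 in Tg TAC, 14.17 (animal 445) and 14.57 (animal 17) in WT TAC, 14.63 in the library labelled Tg Sham and 14.67 in WT Sham.

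Set by animal number instead, the pathway separated. TAC animals 445 and 446 were compared with TAC animals 17 and 18, with genotype label and surgery in the same fit and 1 residual degree of freedom. That residual was how far the difference disagreed between the genotype labels, not a spread between like animals. Limma called 680 of 9577 genes (7.10%), 288 lower (3.01%) and 392 higher (4.09%) in animals 445 and 446. At an unadjusted p below 0.05 there were 2302 genes (24.0%) and 26 members. Of the 31 members 16 were called, all lower, and 25 were lower without overlap, against 23.9% of all genes. None was higher without overlap, against 20.6%. The median member difference was -0.62, against -0.03 over all genes. These calls leaned on limma's intensity trend in the variance: without it 42 genes and 1 member, *Acot1*, were called. The libraries at odds with the *Kdm3a* probe enter this comparison as animal 445 and, among the shams, animal 454.

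Among uptake genes, *Slc27a1*, fatty acid transport protein 1, read 8.45 (446) and 8.34 (445) against 9.15 (18) and 9.50 (17), with 9.14 in the library labelled Tg Sham and 8.60 in WT Sham. Animals 445 and 446 were lower than the 4 others, and the difference from animals 17 and 18 was -0.93 ± 0.16 (adjusted p = 0.024), 1.91-fold. *Pnpla2*, adipose triglyceride lipase, differed by -0.53 and missed the threshold (adjusted p = 0.054). *Cd36* read 5.55 and 5.26 against 5.95 and 6.20, and in animal 445 it was not detected. Its difference of -0.67 ± 0.25, counted among those without overlap, therefore rests in part on an undetected reading. *Fabp3* (0.07 ± 0.09) and the brightest *Lpl* probe (-0.05 ± 0.09) overlapped between the animal pairs. The dimmer *Lpl* probe (ILMN_2585447) differed by -0.42 ± 0.21 in the fit over single probes. Both bright probes read from 34308 to 42221 raw intensity units, and whether differences were compressed at this brightness was not tested.

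Of the genes listed for activation only *Acsl6* was measured. It read 5.97 (446) and 7.11 (445) against 7.24 (18) and 9.63 (17), with 8.91 in the library labelled Tg Sham and 8.62 in WT Sham. Animals 445 and 446 were lowest, but animal 18 stood closer to them than to animal 17. The difference of -1.89 ± 0.29 (adjusted p = 0.017) was 3.71-fold. Without animal 446 or 18 it was -2.52, the contrast of the WT TAC arrays, and without animal 445 or 17 it was -1.27, that of the Tg TAC arrays. The second *Acsl6* probe (ILMN_1236666) read 5.37 and 6.55 against 6.66 and 8.45, in the same order of TAC arrays. Other acyl-CoA synthetases (*Acsl3*, *Acsl4* and *Acsl5*) were measured among the further fatty acid genes. *Acsl5* went the other way, higher in animals 445 and 446 by 0.55 ± 0.12, so *Acsl6* does not stand for the whole activation step.

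All 4 measured genes of the carnitine shuttle were called. *Cpt1b* read 12.63 (446) and 12.10 (445) against 13.04 (18) and 12.76 (17), a difference of -0.54 ± 0.11 (adjusted p = 0.039). Its sham values were 12.86 in the library labelled Tg Sham and 12.16 in WT Sham, so that the low value of animal 445 was close to WT Sham. *Cpt2*, the inner carnitine palmitoyltransferase, read 12.30 and 12.56 against 12.93 and 13.24, with 12.81 in the library labelled Tg Sham and 12.96 in WT Sham (-0.66 ± 0.10, adjusted p = 0.017). *Slc25a20* read 12.10 and 12.24 against 12.60 and 13.05, with shams at 12.95 (labelled Tg) and 12.68 (WT) (-0.66 ± 0.12, adjusted p = 0.025). Both were lower in animals 445 and 446 than on the 4 other arrays. *Crat* had the widest difference of the step, with 10.42 and 10.37 against 11.33 and 11.23 (-0.89 ± 0.11, adjusted p = 0.012), although its 3 probes did not give 1 value and their mean differed by -0.46 (adjusted p = 0.13).

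In beta-oxidation 7 of 14 genes were called, all lower in animals 445 and 446 than in animals 17 and 18. *Acaa2* read 11.05 (446) and 10.75 (445) against 11.77 (18) and 12.03 (17), with 12.18 in the library labelled Tg Sham and 11.68 in WT Sham. Animals 445 and 446 were the lowest of the 6, with a difference of -1.0 ± 0.15 from animals 17 and 18 (adjusted p = 0.017), a factor of 2.00. *Decr1* had the widest difference of the step, -1.33 ± 0.14 (adjusted p = 0.0075, 2.51-fold), with 9.92 and 8.63 against 11.07 and 10.14. Its shams, at 10.33 in the library labelled Tg Sham and 8.99 in WT Sham, overlapped both pairs, and the low value of animal 445 was near that of WT Sham. The other genes called were *Acadsb* (-0.86 ± 0.13), the short and branched chain dehydrogenase, *Acads* (-0.83 ± 0.13), the short-chain dehydrogenase, *Eci1* (-0.73 ± 0.10), an enoyl-CoA isomerase, *Echs1* (-0.62 ± 0.13), the short-chain enoyl-CoA hydratase, and *Hadhb* (-0.52 ± 0.10), the beta subunit of the trifunctional protein. Their adjusted p lay between 0.014 and 0.041. For some called genes animals 445 and 446 lay nearer the mean of the shams than animals 17 and 18 did. The differences from the shams were -0.08 and 0.78 for *Acadsb*, -0.22 and 0.4 for *Echs1*, -0.27 and 0.56 for *Acads* and -0.38 and 0.95 for *Decr1*. For *Acaa2* (-1.03 and -0.03), *Eci1* (-0.68 and 0.04) and *Hadhb* (-0.29 and 0.22) animals 445 and 446 lay farther from the shams.

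The other beta-oxidation genes did not pass. *Hadh* read 6.85 and 6.81 against 7.40 and 7.83, lower in both animals but with an adjusted p of 0.062 (-0.79 ± 0.19). *Eci2*, *Acadvl* (very long-chain dehydrogenase) and *Acadm* were also lower without overlap, with *Acadm* at -0.28 ± 0.10 (adjusted p = 0.17). *Acaa1a*, the peroxisomal thiolase, had a range of only 0.19 over all 6 arrays. *Hadha*, whose protein forms a complex with that of *Hadhb*, read 7.95 and 7.72 against 7.31 and 8.24 and overlapped. Its only probe was dim, from 229 to 376 raw intensity units, and how well it reads the transcript was not tested. *Acadl* had 0.35 ± 0.11 on its brightest probe and -0.74 ± 0.15 on the second (adjusted p = 0.12 in the gene fit and 0.018 in the fit over single probes), the only member whose probes disagreed in direction here.

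Of 3 electron transfer genes, 1 was called. *Etfb*, the beta subunit of electron transfer flavoprotein, read 13.63 (446) and 13.72 (445) against 14.44 (18) and 14.29 (17) and was called (-0.68 ± 0.11, adjusted p = 0.018). *Etfa* and the dehydrogenase *Etfdh*, which passes the electrons on to ubiquinone, were each lower by -0.25 ± 0.10 without overlap and did not pass. Among their other kept probes, 1 of *Etfa* was called with each probe tested alone (-0.51 ± 0.10, adjusted p = 0.017), and 1 of *Etfdh* differed by -0.78 ± 0.22 (adjusted p = 0.062). The shams of *Etfb*, at 14.09 in the library labelled Tg Sham and 13.83 in WT Sham, lay between the pairs.

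The thioesterase *Acot1*, which splits acyl-CoA in the cytosol, had the widest difference of all members. It read 6.73 (446) and 7.94 (445) against 9.60 (18) and 10.20 (17), with 9.50 in the library labelled Tg Sham and 9.84 in WT Sham. The low animals were more than a log2 unit below each of the others. The difference was -2.57 ± 0.18 (adjusted p = 0.0025), 5.94-fold, and it was -2.26 between the WT TAC arrays and -2.88 between the Tg TAC arrays. A second probe (ILMN_3062267) read 5.27 and 5.70 against 6.90 and 7.34. *Acot2*, its neighbour on chromosome 12, is close to it in sequence, and signal shared between their probes was not tested. *Acot2* read 7.68 and 7.96 against 8.26 and 8.31 (-0.46 ± 0.16, adjusted p = 0.14). *Mlycd*, malonyl-CoA decarboxylase, which removes the inhibitor of carnitine palmitoyltransferase, was called at -0.99 ± 0.16 (adjusted p = 0.018), and *Ppara* overlapped (-0.12 ± 0.25).

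**Figure D3:**
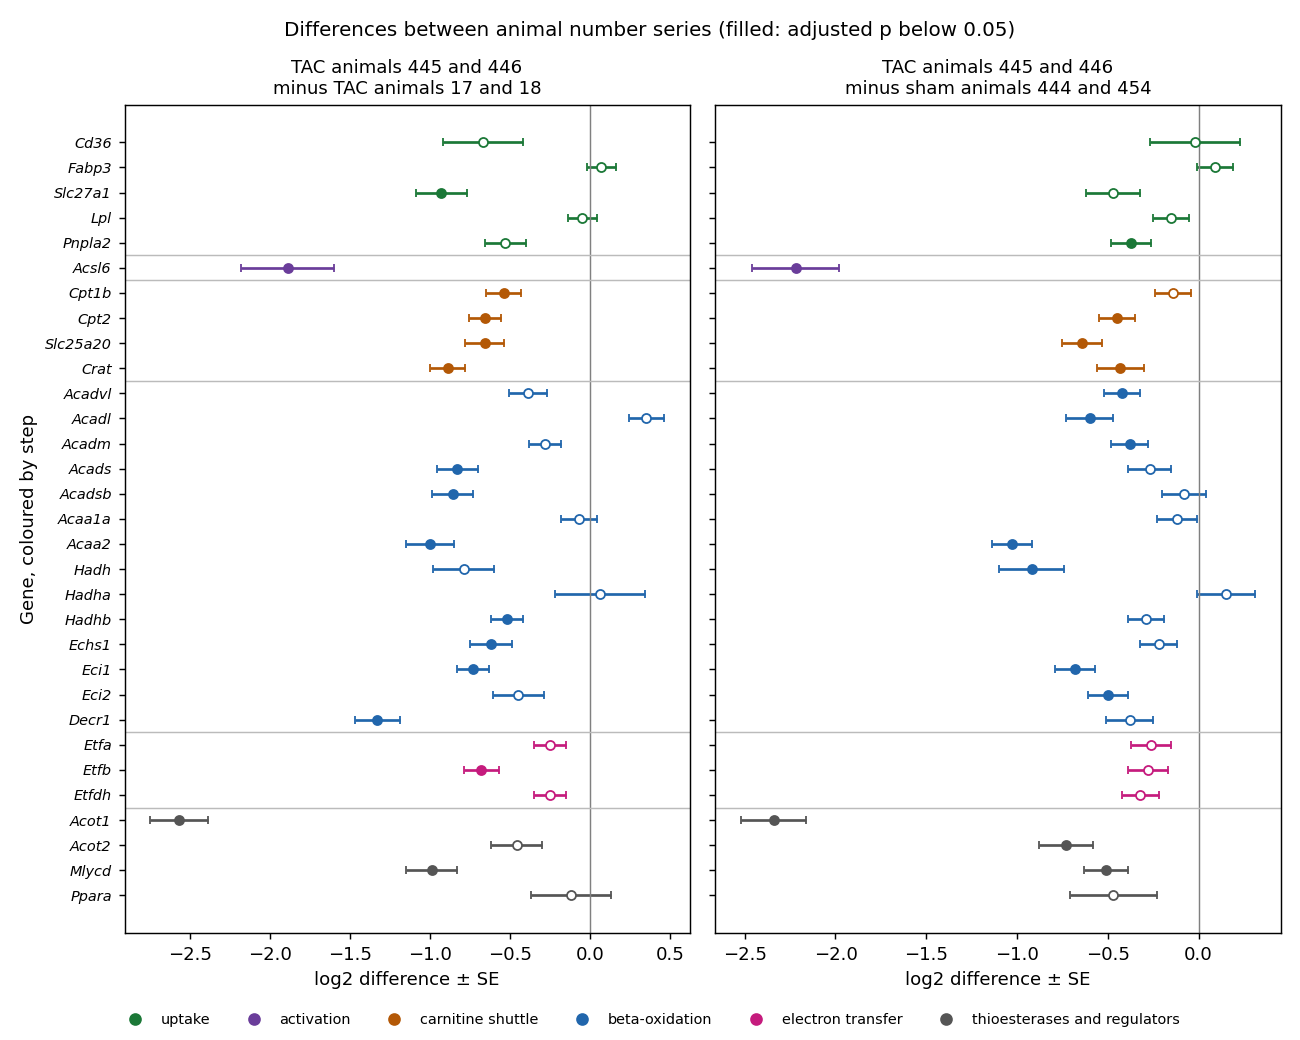
Log2 difference ± SE of each gene between TAC animals 445 and 446 and TAC animals 17 and 18 (left), and between TAC animals 445 and 446 and the sham animals 444 and 454 (right). Filled circles passed limma's adjusted p of 0.05. *Acot1* and *Acsl6* lie farthest left in both panels, and *Fabp3* and *Hadha* lie near zero.

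**Figure D4:**
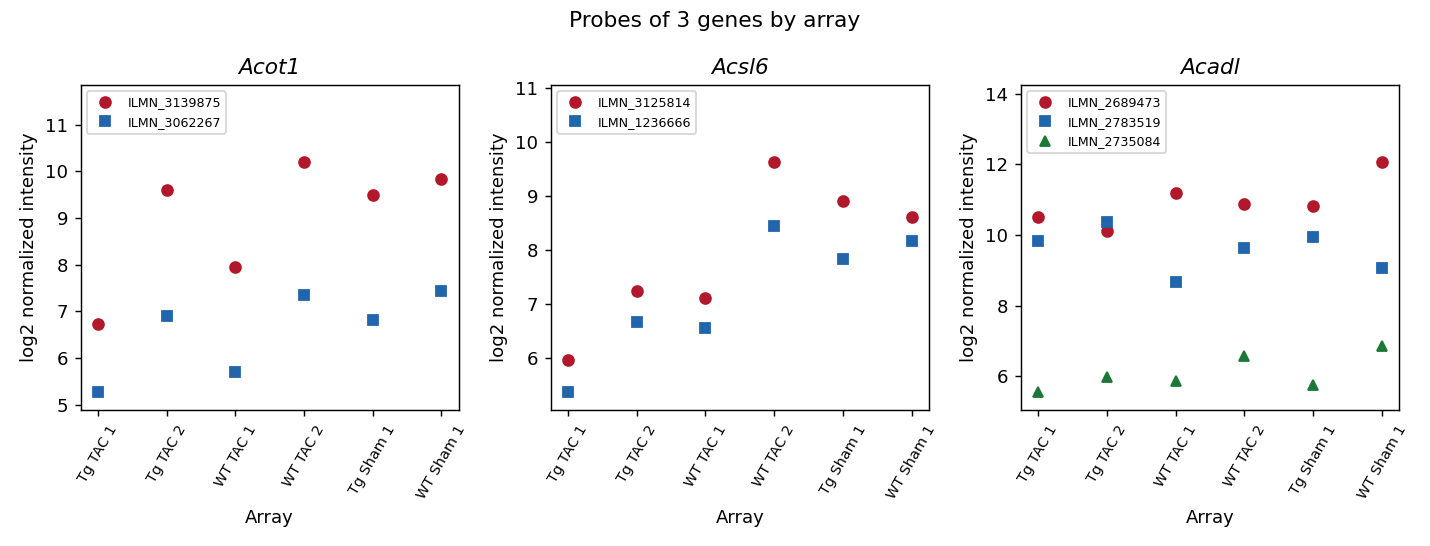
Log2 normalized intensity of each kept probe of *Acot1*, *Acsl6* and *Acadl* on the 6 arrays. Both *Acot1* probes and both *Acsl6* probes are lowest in animal 446 (Tg TAC 1), while the first *Acadl* probe is highest in WT Sham (12.07) and the second in Tg TAC 2 (10.36).

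Set against the shams, the same TAC animals were low and the other TAC animals were not. Both shams belong to the 444 to 454 number series, and the other TAC animals had no sham of their own series. All 4 arrays of animals 444 to 454 gave 1 TAC and 1 sham array for each genotype label. With surgery and genotype label in this fit, 1 residual degree of freedom was left, again the disagreement between genotype labels. The *Kdm3a* probe split the 4 arrays as surgery did, at 34642 (446) and 30614 (445) against 247 in the library labelled Tg Sham and 341 in WT Sham, so that by the probe genotype and TAC cannot be told apart here. In this fit limma called 1158 genes (12.1%) for TAC, among them 15 members, with 2407 genes (25.1%) at an unadjusted p below 0.05. The 15 were all lower in TAC animals 445 and 446. Without the intensity trend the fit called 305 genes and 4 members (*Acot1*, *Acsl6*, *Acaa2* and *Hadh*). The median of the members was -0.38, against 0.02 over all genes. Both TAC animals lay below both shams for 20 members, against 18.0% of all genes, and above them for none, against 22.1%. *Acot1* differed by -2.34 ± 0.18 (adjusted p = 4.9e-07), *Acsl6* by -2.22 ± 0.24 (1.9e-05), *Acaa2* by -1.03 ± 0.11 (1.9e-05), *Hadh* by -0.92 ± 0.18 (0.0026) and *Acot2* by -0.73 ± 0.15 (0.0052). The smaller calls were *Eci1*, *Slc25a20*, *Mlycd*, *Eci2*, *Cpt2*, *Crat*, *Acadvl* and *Acadm*, from -0.68 to -0.38, and *Acadl* (-0.60 ± 0.13 on its brightest probe) and *Pnpla2* (-0.37 ± 0.11), whose groups overlapped.

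TAC animals 17 and 18 did not share this over the members as a whole. Their number series had no sham, so a TAC response in them cannot be told apart from a difference between the series. The median member difference of animals 17 and 18 from the shams was 0.04. Without overlap 1 member was lower (*Acadm*), against 14.9% of all genes, and 8 were higher, against 20.7%. *Acadsb* had the widest difference of the 8 (0.78), with 10.51 (18) and 10.57 (17) against 9.86 in the library labelled Tg Sham and 9.65 in WT Sham. Single genes departed from this. On its brightest probe *Acadl* differed from the shams by -0.95 in animals 17 and 18, with overlap. *Acsl6* read 7.24 in animal 18, below both shams (8.91 in the library labelled Tg Sham and 8.62 in WT Sham), and 9.63 in animal 17. Over the whole set, 18 members lay lower in both animals 445 and 446 than on all 4 other arrays, against 11.1% of all genes. Degree of constriction and RNA quality of single animals were not given in the sources used here, and animal number and any day or batch behind it cannot be told apart.

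Other fatty acid genes went the same way. A list of 58 further genes of fatty acid handling had 46 measured, with a median of -0.30 between animals 445 and 446 and animals 17 and 18, 9 called lower and 1 higher. *Ucp3*, a mitochondrial carrier of muscle, read 5.77 (446) and 6.83 (445) against 7.34 (18) and 7.67 (17) (-1.20 ± 0.23, adjusted p = 0.032). *Plin5*, a lipid droplet coat protein, read 9.50 and 9.75 against 10.48 and 10.86 (-1.05 ± 0.12, adjusted p = 0.0085), and *G0s2*, an inhibitor of adipose triglyceride lipase, 8.70 and 8.87 against 9.86 and 9.75 (-1.02 ± 0.14, adjusted p = 0.014). These 3 genes did not overlap between the pairs. *Dgat2*, *Abcd3*, *Ech1*, *Hsd17b10*, *Acacb* and *Acss1* were also called lower, and *Acsl5*, another acyl-CoA synthetase, was called higher (0.55 ± 0.12, adjusted p = 0.047).

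Genes of mitochondrial content and of other cell types moved alongside. Over all genes tested, 3.01% were called lower and 4.09% higher between the animal pairs. Of 21 measured genes for citrate cycle and respiratory chain proteins, 3 were called, all lower (*Idh3a*, *Sdhc* and *Atp5a1*), with a median of -0.23 between the animal pairs and a summed linear intensity of 318974 (446) and 334386 (445) against 356024 (18) and 378943 (17), with 359422 in the library labelled Tg Sham and 359531 in WT Sham. Cardiac muscle markers had a median of -0.13 over 9 of 10 listed genes and 1 call (*Ryr2*, -0.52 ± 0.10), with sums of 211110 and 200074 against 225636 and 215262. Only *Tnnt2* of these markers was not measured. Fibroblast markers were higher, with 4 of 8 called (*Col1a1*, 1.71 ± 0.13, *Col3a1*, *Col1a2* and *Lum*). Their sums were 21356 and 23689 against 17015 and 17294, with 17835 in the library labelled Tg Sham and 22688 in WT Sham. *Dcn*, the brightest gene of that list (14.21 in WT Sham), weighs most in the sums. The median deviation of the list was 0.58 (446) and 0.39 (445), against 0.01 in WT Sham and -0.17 in the library labelled Tg Sham. Macrophage markers had 4 of 9 called, all higher, with sums of 7920 and 9160 against 5643 and 5836, with 5385 in the library labelled Tg Sham and 6859 in WT Sham. Endothelial markers were higher for 7 of 9 genes, with a median of 0.27 and 1 call (*Cldn5*, 1.27 ± 0.13, adjusted p = 0.0066), and their sums were 17465 and 17906 against 13244 and 14670, with 18011 in the library labelled Tg Sham and 16838 in WT Sham. Smooth muscle and pericyte markers were higher for 7 of 8 genes, with a median of 0.32, 0 calls and sums that overlapped between the pairs. The part of these cell types in the pathway's difference was not tested, and in bulk tissue fewer cells of a type and less RNA per cell cannot be told apart. No adipocyte marker of 7 was measured as a kept probe.

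**Figure D5:**
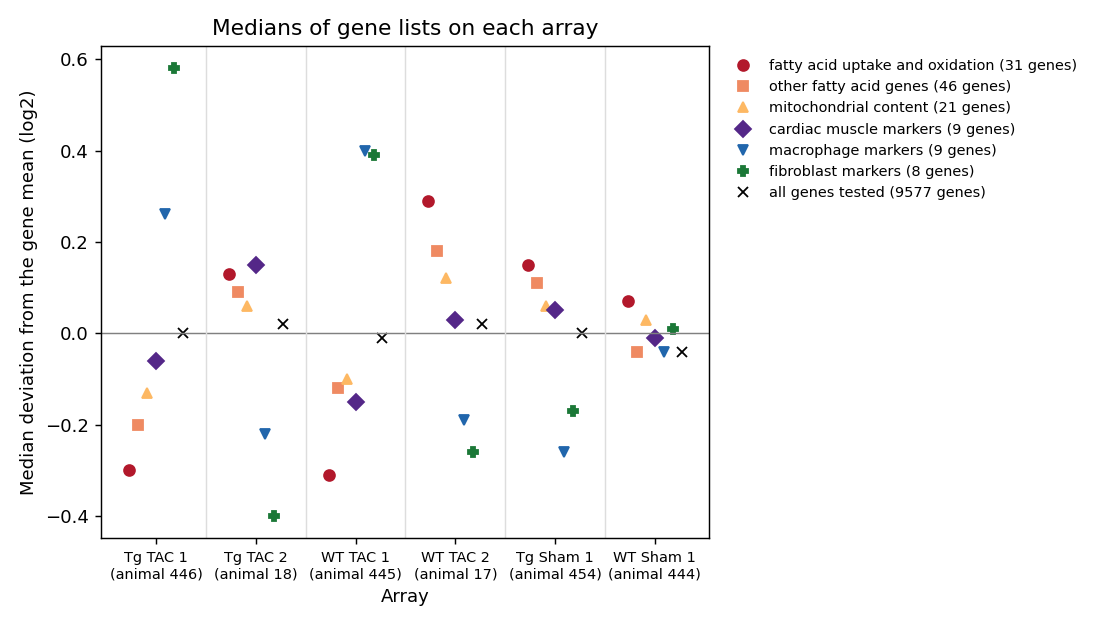
Median deviation from the gene mean (log2) of 7 gene lists on each array. In animals 446 and 445 the pathway (circles, -0.30 and -0.31) is at the bottom and fibroblast and macrophage markers are at the top, and in the other 4 arrays the pathway lies above zero.

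Because the members moved together, the DNA upstream of their starts was searched for the core motif of nuclear receptors such as PPARα and the estrogen-related receptors. RefSeq windows (GRCm38.p6, 250 bases before to 50 after a start) were at hand for 29 of the 34 genes. AGGTCA, on either strand, was found in 6 of them (20.7%), against 18.1% of 27025 gene symbols with a window and 14.8% of the 7774 genes tested here that had one. Among members called between the animal pairs it was in 2 of 12 with a window (*Acsl6* and *Echs1*), and among the measured members not called between them in 3 of 14. The extended form TCAAGGTCA, which contains AGGTCA, was in *Acsl6* alone, against 0.466% of symbols and 0.309% of the genes tested, and a direct repeat of AGGTCA with any 1 base between the copies was in none, against 0.0481%. Shown are the 200 bases before the start for both members with the widest differences, for *Echs1* as another called gene with a match and for *Acadvl* as a gene with a match that was not called between the animal pairs. They lie at chr11:54303624-54303823 on the plus strand (1 of 3 *Acsl6* starts), chr12:84009302-84009501 on the plus strand, chr7:140116422-140116621 on the minus strand and chr11:70015429-70015628 on the minus strand. The *Acsl6* start was chosen among its 3 because it holds the motif, and the others held no match. Capitals mark AGGTCA or its reverse complement.
Acsl6: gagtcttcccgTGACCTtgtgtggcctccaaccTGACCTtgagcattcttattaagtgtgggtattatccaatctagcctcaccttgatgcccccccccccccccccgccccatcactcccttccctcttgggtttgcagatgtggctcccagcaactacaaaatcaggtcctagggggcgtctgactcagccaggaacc
Acot1: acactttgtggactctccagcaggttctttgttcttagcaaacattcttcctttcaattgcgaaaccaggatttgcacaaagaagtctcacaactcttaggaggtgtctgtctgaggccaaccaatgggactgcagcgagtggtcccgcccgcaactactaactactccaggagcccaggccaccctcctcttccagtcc
Echs1: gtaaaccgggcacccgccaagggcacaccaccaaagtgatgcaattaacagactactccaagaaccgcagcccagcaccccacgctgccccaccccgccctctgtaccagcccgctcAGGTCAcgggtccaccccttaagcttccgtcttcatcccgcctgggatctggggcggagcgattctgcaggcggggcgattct
Acadvl: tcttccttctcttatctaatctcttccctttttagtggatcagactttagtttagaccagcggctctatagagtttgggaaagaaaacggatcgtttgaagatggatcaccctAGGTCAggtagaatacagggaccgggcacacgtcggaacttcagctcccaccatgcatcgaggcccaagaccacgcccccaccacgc
*Acsl6* carried 2 matches, both as the reverse complement, with first bases at -189 and -167 from the start, and the second is part of the extended form. *Echs1* had its match at -83 and *Acadvl* at -87. *Acot1*, which moved most, had none in the window. A match is a description of the letters only.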

How the data were processed

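Total RNA of the left ventricle of 6 mice was hybridised to 1-colour Illumina beadchips, 1 array per animal. The authors deposited a table of non-normalized intensity with a detection p-value for each of 45281 probes and array, summarised in GenomeStudio 2011.1 per the labels, and a normalized intensity table, which the values show to be quantile normalized on the linear scale without background correction. From the raw intensities, background was corrected with limma's normexp, set by the detection p (offset 16), followed by quantile normalization and log2 (R 4.3.3, limma 3.58.1). Probes with a detection p below 0.01 on at least 2 of 6 arrays were kept (17014, of which 14620 had 1 symbol, giving 9577 genes), and a gene was represented by its kept probe with the highest mean. Levels of different probes were not compared.

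Fits used lmFit and eBayes with an intensity trend and Benjamini-Hochberg adjustment over all genes, with a call at 0.05: group means (2 residual degrees of freedom), surgery plus genotype (3), and groups plus animal number series (1). The single shams were assumed to vary like the TAC groups. Between 15643 and 16492 probes were detected per array, and the number of arrays limits the precision. In the fit of group means, p-values measure the spread between the 2 animals of each TAC group. The fit of surgery plus genotype adds how far the genotype labels disagree. In fits with 1 residual degree of freedom that disagreement is the whole residual. No spread between like animals enters their p-values. The fits were run on simulated arrays in which 200 genes were shifted and every gene had the same small spread. Replicates here varied more for some genes (SD 2.03 for *Acot1* in Tg TAC), so that run gives no error rate for these data. For each comparison the text names up to 5 members in each direction without overlap, with any member called. Alternatives changed the background, normalization, offset, filter, probe rule and variance trend, added the animal series as a block, and left out arrays. The alternatives within animals 444 to 454 were chosen after seeing the data. Members and lists were chosen with earlier results of these data known. Sequences are from RefSeq (Python 3.11.15).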

Additional observations from a re-analysis of the deposited data

Results flagged for a closer look

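*Fabp3*, the heart fatty acid binding protein, moved in opposite directions after TAC by genotype label. Both Tg TAC arrays, at 15.21 and 15.09, lay below the library labelled Tg Sham (15.22), a difference of -0.08, and both WT TAC arrays, at 15.29 and 15.28, lay above WT Sham (15.11), a difference of 0.18. The difference between these responses was -0.25 ± 0.21 and did not pass in limma's interaction test (adjusted p = 1.00). The same opposite placing was seen in 1193 genes, 12.5% of those measured, and *Fabp3* was the only member. The step between the Tg TAC array of animal 446 and its sham was 0.01, and 2 of the libraries behind these values, WT TAC from animal 445 and Tg Sham, go against the *Kdm3a* probe. The *Fabp3* probe read from 34308 to 41494 raw intensity units, and whether differences were compressed at this brightness was not tested.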

How the results depend on the processing

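With 2 TAC arrays and 1 sham array per genotype label, these data resolve few differences by label, and dim probes (*Cd36*, *Ppara*) are near the detection limit. In the comparisons by label, 0 members passed under every alternative run except the replicate block by animal number series and the fits within animals 444 to 454. The series numbers are not stated to pair the animals. Deviations of the replicates ran together over all genes (r = 0.54, same sign in 67.5%) and over the members (r = 0.77, 28 of 31), over 2 pairs only. With the block, genes called were 7 for Tg TAC against WT TAC, 69 with 2 members for Tg TAC against Tg Sham (*Acsl6* at -3.25 ± 0.38, adjusted p = 0.032), and 93 with 1 member for TAC against sham over both genotypes, and it changed no other count of calls.

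Without both libraries at odds with the *Kdm3a* probe, 2 genes were called for Tg TAC against WT TAC, and the members' median was 0.35 for WT TAC against WT Sham and 0.35 for TAC against sham. Within animals 444 to 454, TAC called 1158 genes and 15 members, 305 and 4 without the intensity trend, 1393 and 14 with median scaling, 762 and 12 with the mean of the probes, and 1385 and 18 in the authors' normalized table. Between TAC animals 445 and 446 and TAC animals 17 and 18, genes called were 432 without a filter on dim probes, 388 (10 members) with the mean of the probes, 1210 probes (28 of members) with each probe alone, and 42 (1 member) without the trend. The cause of each shift was not tested. *Etfdh* turned to 0.07 in Tg Sham against WT Sham with the mean of its probes.

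Leaving out 1 array at a time, the members' median ranged from -0.36 to 0.23 for Tg TAC against WT TAC, -0.37 to 0.35 for WT TAC against WT Sham, -0.38 to -0.01 for Tg TAC against Tg Sham, -0.60 to 0.16 for the interaction, -0.26 to -0.05 for TAC against sham and -0.70 to -0.44 between the animal pairs, and was fixed at 0.21 for the shams, each the single array of its group. Genes called ranged from 0 to 2, 0 to 1, 0 to 1, 0 to 1, 0 to 4 and 673 to 678 in that order, with 0 for the shams, and members called were 0 by label and 16 between the animal pairs. There a test was left only without a sham, which does not enter that contrast, so 673 to 678 and 16 say nothing of stability.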
